A study of Mus musculus with 5 samples.

Results

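The iron, zinc and copper handling genes described here are 10 named genes, *Trf*, *Tfrc*, *Fth1*, *Ftl1*, *Slc40a1*, *Slc30a2*, *Slc30a4*, *Cp*, *Mt1* and *Mt2*, taken as the rows of the deposited expression table that carry these symbols. All 10 were found, among 24319 genes. The table holds bulk RNA-seq of 5 libraries of sorted mouse mammary luminal cells, given as FPKM, the fragments of a gene divided by the length of its transcript and by the size of the library. The labels name replicates 1, 2 and 3 wild type and replicates 4 and 5 *Brca1* knockout, all from the mammary gland of mice of mixed strain. The study's text speaks of its luminal cells as BRCA1-deficient and of mice with *MMTV-Cre*, a Cre driven by the mouse mammary tumor virus promoter, and per its methods cells high for CD24 and low for CD29 were sorted. Glands were taken from adult females that were either virgin or at mid-pregnancy, of a single age range. Red cells were lysed, blood and endothelial cells were depleted before sorting, and the digestion medium held insulin and hydrocortisone, a glucocorticoid. Which libraries came from virgin and which from pregnant mice is not given in the sources used here, so stage and label cannot be told apart, and the libraries were grouped as labelled and also described 1 by 1.

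The mammary epithelium handles metals for its own use and for milk. Transferrin carries ferric iron in blood and milk, the transferrin receptor brings it into the cell, ferritin stores it and ferroportin lets it out. Iron regulatory proteins bind short hairpins, the iron-responsive elements, in the mRNAs of several of these genes when iron is scarce: binding in the 5′ untranslated region holds back translation, and binding in the 3′ untranslated region protects the mRNA. Zinc leaves the cytosol through transporters of the SLC30 family, some of which load secretory vesicles, ceruloplasmin is a copper-containing ferroxidase, and metallothioneins bind zinc and copper and are switched on by metals through the factor MTF1.

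The iron-responsive elements are shown because they divide the iron genes into those with the hairpin before and those with it behind the coding sequence. A search of GENCODE M21 transcripts (build GRCm38) for a loop of CAGTGN closed by 5 pairing bases, with G-T pairs allowed and an unpaired C before the stem, found 1 match each in the 5′ untranslated regions of *Fth1*, *Ftl1* and *Slc40a1*. In the 3′ untranslated region of *Tfrc* it found 4. The 6 loop bases are in capitals and each run is written 5′ to 3′ on the strand of the gene, at chr19:9982732-9982760 for *Fth1*, chr7:45459779-45459807 for *Ftl1* and chr1:45925465-45925493 for *Slc40a1*. The *Tfrc* matches lie at chr16:32631219-32631247, chr16:32631598-32631626, chr16:32631663-32631691 and chr16:32631710-32631738, in the order printed.
*Fth1*, plus strand: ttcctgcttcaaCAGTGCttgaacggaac
*Ftl1*, minus strand: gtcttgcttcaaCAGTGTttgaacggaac
*Slc40a1*, minus strand: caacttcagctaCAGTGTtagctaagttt
*Tfrc* (a), plus strand: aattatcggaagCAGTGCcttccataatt
*Tfrc* (b), plus strand: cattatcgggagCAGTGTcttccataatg
*Tfrc* (c), plus strand: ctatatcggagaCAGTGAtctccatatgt
*Tfrc* (d), plus strand: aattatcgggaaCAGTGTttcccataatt
The same search matched 31 of 20899 genes with a 5′ untranslated region (0.148%) and 129 of 21028 genes with a 3′ untranslated region (0.613%). No match was found in the other 6 genes. Only this pattern was searched, so a hairpin that departs from it was not counted. A match is a description of the letters, and the files hold no measurement of protein binding or translation.

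For the zinc and copper genes the promoters were searched for the core of the metal response element, TGCACNC or TGCGCNC on either strand, in the 250 bases before the RefSeq start (build GRCm38.p6). An entry was found for 8 of the 10 genes, the exceptions being *Trf* and *Slc40a1*. *Mt2* held 3 matches, *Mt1* held 1, *Slc30a2* and *Slc30a4* held 2 each, and *Tfrc* held 2 that overlap each other, before the first of its annotated starts. The *Slc30a2* window, chr4:134343216-134343465, lies inside the GENCODE gene, which begins at chr4:134343181. Its 2 matches are thus within the gene by that annotation. *Cp*, *Fth1* and *Ftl1* held none. Only these windows were searched, so sites near any other start, of *Mt1* for instance, were not counted. Of 32851 promoters of the same length, 21.4% held at least 1 match, 5.17% at least 2 and 1.26% at least 3. The letters TTCNNNGAA, the core bound by STAT factors downstream of prolactin, were not found in any of the 11 windows of these 8 genes (*Cp*, *Fth1* and *Tfrc* have 2 each) and occurred in 7.02% of all promoters. The metallothionein promoters are printed because both genes are near the top of the libraries, from -230 to -11 relative to the start, with the matches in capitals, at chr8:94178859-94179078 for *Mt1* and chr8:94172388-94172607 for *Mt2*, both on the plus strand.
*Mt1*: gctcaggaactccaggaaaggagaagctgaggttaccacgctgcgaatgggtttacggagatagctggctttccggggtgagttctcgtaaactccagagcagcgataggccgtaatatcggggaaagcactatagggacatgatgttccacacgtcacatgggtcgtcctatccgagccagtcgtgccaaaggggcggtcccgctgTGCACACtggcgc
*Mt2*: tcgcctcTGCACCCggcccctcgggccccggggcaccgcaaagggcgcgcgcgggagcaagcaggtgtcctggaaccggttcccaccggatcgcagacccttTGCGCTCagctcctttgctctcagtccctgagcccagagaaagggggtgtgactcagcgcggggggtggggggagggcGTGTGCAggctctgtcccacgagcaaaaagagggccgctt

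Some facts of the whole series bear on every value. The estimated depth was 6300000, 13000000, 31000000, 6400000 and 22000000 fragments for replicates 1 to 5, and between 10979 and 11336 genes reached 1 FPKM. Replicate 3 stood apart, since 51.9% of the 11481 genes tested, those averaging 1 FPKM or more, had their lowest value there. Its summed FPKM of 9 mature luminal markers was 706 against 23.7 to 59.1 in the other libraries, and that of 7 milk protein genes was 28357 against 63206 to 78972. Other lists differed in part by label. Of the mature luminal markers, 6 of 9 were lower in both knockout libraries than in all wild type libraries (median difference -1.52). Of all genes, 5.77% were. Of 10 proliferation genes, 7 were higher in this way (median 1.55), against 17.5% of all genes. All 9 mature luminal markers were highest and all 10 proliferation genes lowest in replicate 3, so both medians rest in part on it. Medians without replicate 3 were not computed. *Prom1* was at 56.7 FPKM there against at most 0.938 elsewhere, and *Tnfsf11* at 7.22 against at most 6.71. The luminal epithelial markers summed to 6364 to 10367 FPKM against 91.4 to 206 for the basal markers, the luminal progenitor markers to 2290 to 3538, and the lymphocyte, endothelial and adipocyte lists did not pass 16.2, 5.58 and 0.871. Most of the progenitor sum in every library was *Csn3*, at 1738 to 2891 FPKM, which is also in the milk protein list. Replicate 2 held the highest sum of 9 macrophage markers, 233 against 22.3 to 27.4. In replicates 1, 4 and 5 most of that sum was *Mertk*, at 19.6, 18.7 and 20.4 FPKM, against 2.38 in replicate 3. The number of these markers at 1 FPKM or more was 3, 8, 7, 2 and 4 in replicates 1 to 5. The gene named in the labels, *Brca1*, was at 1.30, 1.32 and 0.234 FPKM in the wild type libraries and at 1.20 and 1.34 FPKM in the knockout libraries, so its mRNA did not separate the labels (difference 0.27 on the log2 scale, SE 0.38, adjusted p = 0.94 by limma with Benjamini-Hochberg adjustment). Leaving out replicate 3 gave -0.029. A gene-level value covers exons outside a deleted part too. The labels do not say that the replicates came from separate animals, and p-values then measure only the spread between these samples. In bulk libraries, fewer cells of a type and less RNA per cell cannot be told apart.

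The 10 genes covered a wide range of expression. On the log2(FPKM + 1) scale, *Trf* came first with 12.20 ± 0.41 (SD, n = 5), followed by *Fth1* with 12 ± 0.45, *Mt2* with 11.25 ± 0.42, *Mt1* with 11.23 ± 0.26 and *Ftl1* with 10.03 ± 0.33. *Cp* stood at 7.13 ± 0.81, *Slc30a4* at 4.45 ± 0.33 and *Tfrc* at 4.25 ± 0.73, and the lowest were *Slc30a2* at 2.06 ± 0.78 and *Slc40a1* at 0.79 ± 0.23. Among all 24319 genes *Trf* ranked 10 by mean FPKM, *Fth1* 13, *Mt2* 25 and *Mt1* 27, while *Slc40a1* ranked 11985. Some neighbours in this order did not differ beyond their spread. The difference of *Trf* over *Fth1* within a library was 0.19 ± 0.53, with *Trf* higher in 4 of 5 libraries, that of *Mt2* over *Mt1* was 0.02 ± 0.19, with *Mt2* higher in 1 of 5, and that of *Slc30a4* over *Tfrc* was 0.21 ± 0.49, higher in 3 of 5. The steps from *Mt1* to *Ftl1* (1.20 ± 0.38), from *Ftl1* to *Cp* (2.90 ± 0.80), from *Cp* to *Slc30a4* (2.67 ± 1.09) and from *Tfrc* to *Slc30a2* (2.18 ± 0.68) had the same sign in 5 of 5 libraries. Between *Fth1* and *Mt2* (0.75 ± 0.62) and between *Slc30a2* and *Slc40a1* (1.27 ± 0.90) it held in 4 of 5. FPKM is divided by transcript length, so these are comparisons per length.

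**Figure D1:**
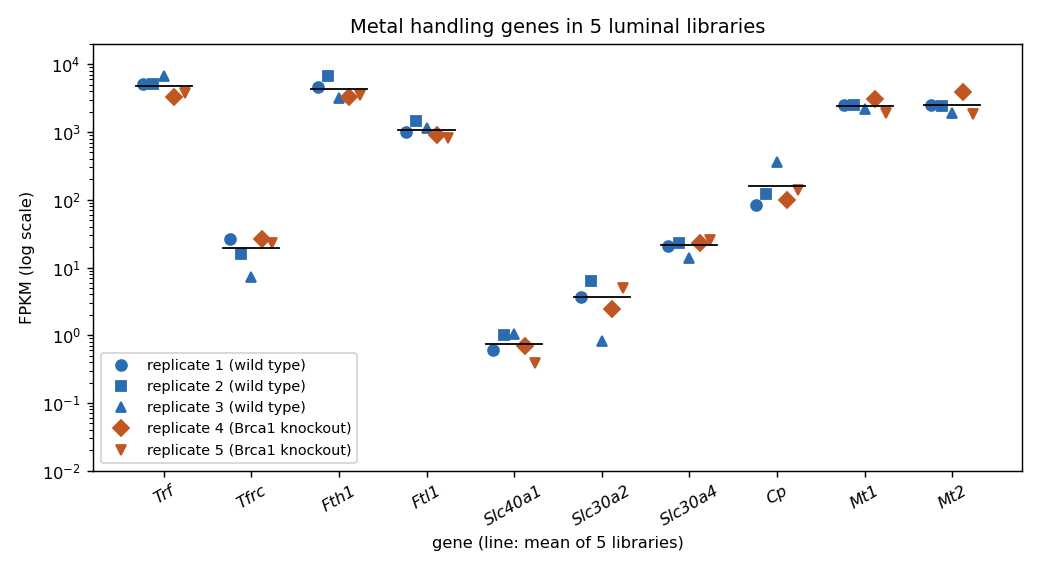
FPKM of the 10 metal handling genes (horizontal axis) in each library on a log axis, with 1 symbol per replicate, blue for libraries labelled wild type and orange for *Brca1* knockout, and a line at the mean of 5 libraries. *Trf*, *Fth1*, *Mt1* and *Mt2* sit at 1880 FPKM or higher in every library and *Slc40a1* does not pass 1.03.

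*Trf* (ENSMUSG00000032554, chr9:103204001-103230444, minus strand, 17 exons in its longest coding transcript) encodes transferrin, which the secreting mammary epithelium makes itself and passes into milk. It was at 5161, 5204 and 6754 FPKM in the wild type libraries and at 3343 and 3750 FPKM in the knockout libraries. Both knockout libraries lay below the 3 wild type libraries, and replicate 3 was the highest. *Trf* made up between 0.525% (replicate 4) and 1.28% (replicate 3) of all summed FPKM. The label means were 5706 ± 907 (SD, n = 3) and 3546 ± 288 (SD, n = 2) FPKM, a difference of -0.68 on the log2(FPKM + 1) scale (SE 0.27, 95% interval -1.36 to 0.0083). This did not pass the test (adjusted p = 0.924, limma with Benjamini-Hochberg adjustment), and an exact permutation test gave p = 0.2, the smallest that 3 libraries against 2 allow. Leaving out any 1 library gave differences from -0.76 to -0.55. The mature luminal markers, which summed to 59.1, 53.8 and 706 FPKM in the wild type and 23.7 and 35.1 FPKM in the knockout libraries, were lower in the same libraries, and their part in the level of *Trf* was not tested.

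*Tfrc* (ENSMUSG00000022797, chr16:32608920-32632794, plus strand, 19 exons) encodes the transferrin receptor that takes up transferrin-bound iron, and its 3′ untranslated region held the 4 matches printed above. It was at 26.8, 15.6 and 7.28 FPKM in the wild type libraries and at 26.3 and 22.6 FPKM in the knockout libraries. The lowest value was that of replicate 3 and the highest that of replicate 1, so the labels overlapped. The means were 16.6 ± 9.78 (SD, n = 3) and 24.5 ± 2.60 (SD, n = 2) FPKM, and the difference of 0.70 (log2, SE 0.51, 95% interval -0.60 to 1.99) had an adjusted p of 0.924 by limma. Without replicate 1 the difference was 1.11, without replicate 3 it was 0.24, and without replicates 2 and 3, an alternative added after the data were seen, it was -0.13. The 10 proliferation genes summed to 155, 184 and 62.8 FPKM in the wild type libraries and to 200 and 251 FPKM in the knockout libraries, and all 10 had their lowest value in replicate 3. Its part in the level of *Tfrc* was not tested.

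*Fth1* (ENSMUSG00000024661, chr19:9980598-9985098, plus strand) encodes the heavy chain of ferritin, which oxidises the iron it stores. It was at 4604, 6800 and 3240 FPKM in the wild type libraries and at 3319 and 3478 FPKM in the knockout libraries. Replicate 2 was the highest and replicate 3 the lowest, and the labels overlapped. *Ftl1* (ENSMUSG00000050708, chr7:45457944-45459884, minus strand, 4 exons) encodes the light chain, which helps to form the iron core. It was at 1007, 1448 and 1158 FPKM in the wild type libraries and at 896 and 813 FPKM in the knockout libraries. Here too replicate 2 was the highest, and both knockout libraries were below the 3 wild type libraries. The label difference was -0.46 for *Fth1* (log2, SE 0.38, 95% interval -1.41 to 0.50) and -0.48 for *Ftl1* (SE 0.25, 95% interval -1.11 to 0.14), each with an adjusted p of 0.924 by limma. Without replicate 2 the difference of *Fth1* was -0.18 and without replicate 3 it was -0.72. The annotation names 5 loci after ferritin genes (*Ftl2-ps*, *Fth-ps2*, *Fth-ps3*, *Ftl1-ps1* and *Ftl1-ps2*), so reads of both chains could be shared with near-identical copies and their levels are uncertain to that extent.

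*Hmox1*, the heme oxygenase that frees iron from heme, was highest in the same library as both ferritin chains. It was at 116, 368 and 152 FPKM in the wild type libraries and at 101 and 64.5 FPKM in the knockout libraries, a difference of -1.20 (log2, SE 0.54, adjusted p = 0.924 by limma) that ran from -1.53 to -0.71 with 1 library left out and was -2.01 with estimated library weights. Of the 8 macrophage markers above the filter, 7 were highest in replicate 2, and the summed FPKM of 9 was 233 there. The summed erythroid list was also highest in replicate 2, at 28.0 FPKM against 2.42 to 8.67. The preparation lysed red cells and depleted blood cells before the sort, and the part of any that remained in the ferritin and *Hmox1* values was not tested.

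*Slc40a1* (ENSMUSG00000025993, chr1:45908068-45926523, minus strand, 8 exons) encodes ferroportin, the iron exporter of the cell membrane. It was at 0.613, 0.999 and 1.03 FPKM in the wild type libraries and at 0.701 and 0.387 FPKM in the knockout libraries. No library stood far from the others and the labels overlapped. Its mean of 0.747 FPKM was below the filter of 1 FPKM, and it is the 1 gene of the 10 that was not tested in the main comparison. The values rest on an estimated 13, 44.2, 108, 15.1 and 28.1 fragments in replicates 1 to 5, which by itself gives a counting error of 9.64% to 27.7% of each value. In the fit without a filter, over 19352 genes, the difference was -0.29 (log2, SE 0.18, adjusted p = 0.893 by limma). Replicates 2 and 3, where it was highest, also had the highest sums of 7 fibroblast markers, 110 and 86.4 FPKM against 3.05 to 12.7. The lymphocyte sums there were 6.97 and 16.2 FPKM against 0.472 to 0.792, and the endothelial sums 5.23 and 5.58 against 0.138 to 0.455. The macrophage sum was highest in replicate 2. The part of any of these cells was not tested.

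*Slc30a2* (ENSMUSG00000028836, chr4:134343181-134354484, plus strand) encodes the zinc transporter ZnT2, which loads vesicles of mammary cells and is needed for zinc in milk. It was at 3.66, 6.31 and 0.829 FPKM in the wild type libraries and at 2.43 and 4.97 FPKM in the knockout libraries, on an estimated 49.1 to 338 fragments. Replicate 2 was 7.60 times as high as replicate 3, the largest ratio of highest to lowest among the 10 genes, and both of these libraries carry the wild type label. The label difference was 0.19 (log2, SE 0.64, adjusted p = 0.978 by limma), and without replicate 3 it was -0.37.

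*Slc30a4* (ENSMUSG00000005802, chr2:122681233-122702663, minus strand) encodes ZnT4, the transporter lost in lethal milk mice, whose milk is low in zinc. It was at 20.7, 23.4 and 13.8 FPKM in the wild type libraries and at 23.4 and 25.5 FPKM in the knockout libraries. Replicate 3 was again the lowest, and the other 4 libraries lay close together. Both knockout libraries were above the 3 wild type ones, but replicates 2 and 4 differed only beyond the digits printed here. The difference was 0.36 (log2, SE 0.26, 95% interval -0.30 to 1.02, adjusted p = 0.924 by limma), 0.15 without replicate 3 and 0.094 with estimated library weights. The milk protein genes were also lowest in replicate 3, 6 of the 7 of them, and their part in the zinc transporter values was not tested.

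*Cp* (ENSMUSG00000003617, chr3:19957054-20009145, plus strand, 20 exons) encodes ceruloplasmin, which carries copper and oxidises iron as it leaves the cell. It was at 83.7, 122 and 358 FPKM in the wild type libraries and at 101 and 139 FPKM in the knockout libraries. Replicate 3 was 4.28 times as high as replicate 1, and the other 4 libraries ran from 83.7 to 139 FPKM. The label difference of -0.38 (log2, SE 0.64, adjusted p = 0.947 by limma) turned to 0.23 without replicate 3. The mature luminal markers, 9 of 9, were highest in replicate 3 too, and their part in the value of *Cp* was not tested. Secreted and membrane-anchored ceruloplasmin are splice forms of 1 gene and are not separated in a gene-level value.

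*Mt1* (ENSMUSG00000031765, chr8:94179082-94180327) and *Mt2* (ENSMUSG00000031762, chr8:94172664-94173568) encode metallothioneins and lie on the plus strand, with 5514 bases between the end of *Mt2* and the start of *Mt1*. *Mt1* was at 2487, 2549 and 2159 FPKM in the wild type libraries and at 3084 and 1896 FPKM in the knockout libraries. *Mt2* was at 2475, 2430 and 1941 FPKM in the wild type libraries and at 3923 and 1880 FPKM in the knockout libraries. For both genes replicate 4 was the highest and replicate 5 the lowest, so the knockout libraries enclosed the wild type libraries. *Mt1* varied least of the 10 genes by the ratio of highest to lowest, 1.63, against 2.09 for *Mt2*. The label difference was 0.02 for *Mt1* (log2, SE 0.30, adjusted p = 0.997 by limma) and 0.26 for *Mt2* (SE 0.38, adjusted p = 0.937). Without replicate 4 they were -0.34 and -0.27, and without replicate 5 they were 0.37 and 0.79. The summed FPKM of 10 glucocorticoid-responsive genes, listed because glucocorticoids also induce metallothioneins, was highest in replicate 4, at 1642 against 1176 to 1485 in the others, and was 1231 in replicate 5. The genes of the list did not run alike. *Fkbp5*, *Sgk1*, *Cebpd* and *Errfi1* were highest in replicate 4, *Per1*, *Klf9* and *Nr3c1* in replicate 5, and *Tsc22d3*, *Zbtb16* and *Dusp1* in other libraries. *Fkbp5*, *Sgk1* and *Cebpd* were also lowest in replicate 5, as *Mt1* and *Mt2* were, and the rest of the list was lowest elsewhere. The methods describe 1 digestion medium for all glands, with hydrocortisone. The part of glucocorticoid response in the metallothionein levels was not tested.

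**Figure D2:**
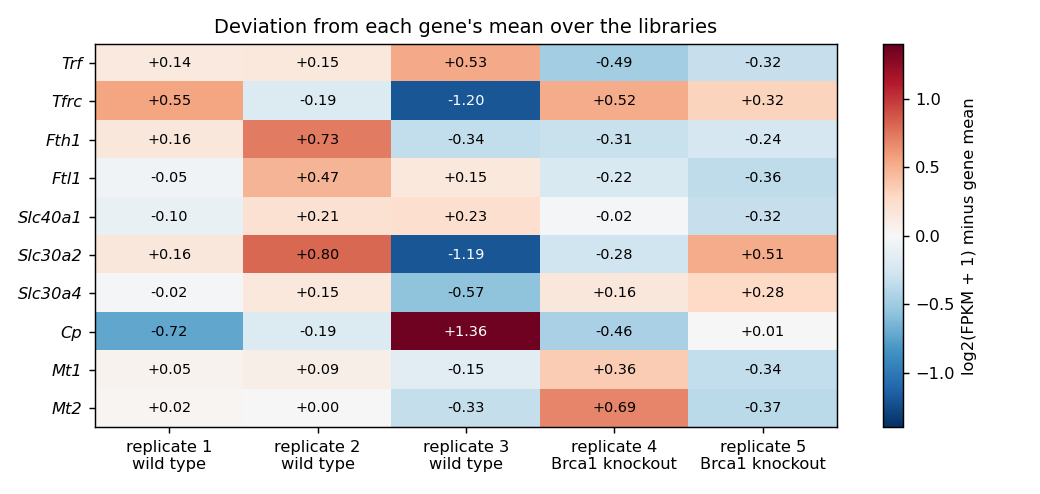
Deviation of log2(FPKM + 1) from each gene's mean, with genes as rows, the 5 libraries as columns with their labels, and red above and blue below the mean. Replicate 3 holds the extremes, 1.36 for *Cp*, -1.20 for *Tfrc* and -1.19 for *Slc30a2*, while both ferritin chains are highest in replicate 2 and both metallothioneins in replicate 4.

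Across the labels, no gene of the 10 passed the test, and none of the 11481 genes tested did either (0% called at an adjusted p of 0.05, limma with Benjamini-Hochberg adjustment). At an unadjusted p of 0.05, 0 of the 9 metal handling genes tested and 372 of all genes (3.24%) passed. The lowest unadjusted p of the 9 was that of *Trf*, 0.052, and the count moved with the setting. In limma fits with a pseudocount of 0.1, with median-of-ratios factors or without a trend *Trf* passed, and without replicate 1 *Tfrc* did. With estimated library weights *Trf*, *Tfrc*, *Fth1* and *Ftl1* passed, as did 2799 of all genes. *Trf* and *Ftl1* were the 2 genes with both knockout libraries below all wild type libraries, which 5.77% of all genes showed, and *Slc30a4* was the 1 gene with both above, which 17.5% showed. These counts moved with the scaling. With median-of-ratios factors *Trf*, *Fth1* and *Ftl1* were lower without overlap and none was higher, with quantile normalization no gene was separated in either direction, and with equal summed FPKM *Trf* was lower and *Tfrc* higher. The median difference of the 9 genes was 0.02 and that of all genes 0.11. With median-of-ratios factors the median of all genes was -0.0088.

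**Figure D3:**
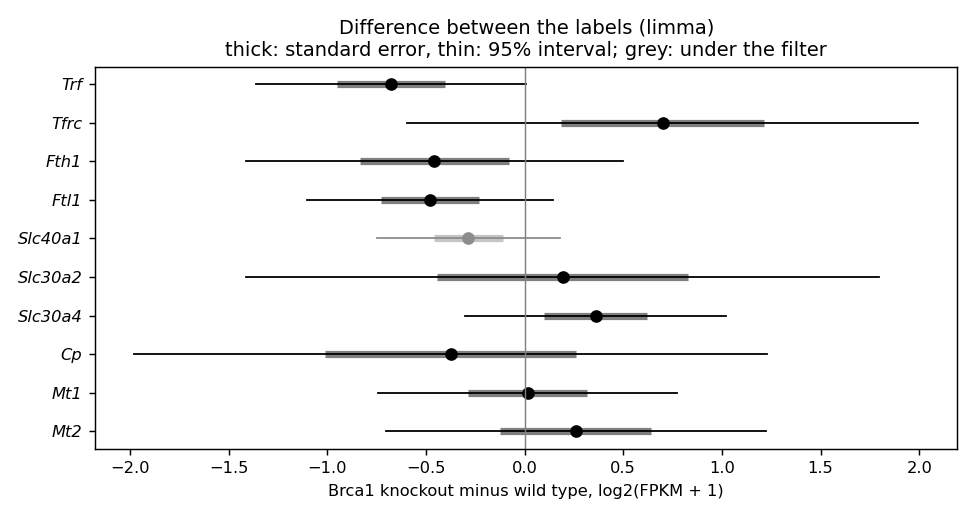
Difference between the labels, knockout minus wild type, in log2(FPKM + 1) for each of the 10 genes, with thick bars for the standard error and thin bars for the 95% interval of limma, and *Slc40a1*, below the filter, in grey. Every interval includes 0, and that of *Trf* (-1.36 to 0.0083) does so at its upper end.

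The spread between libraries was set beside that of all genes. Over the 5 libraries the SD of log2(FPKM + 1) had a median of 0.30 among all genes tested. *Cp* varied more than 90.8% of them, *Slc30a2* more than 90.2% and *Tfrc* more than 89.2%. *Mt1* varied more than 41.6% only, and *Ftl1* (56.3%) and *Slc30a4* (57.8%) were near the middle. *Trf* (69.5%), *Mt2* (71.8%) and *Fth1* (75.0%) lay between. Of the 9 genes, 4 were lowest in replicate 3 and 2 were highest there, against 51.9% and 18.5% of all genes.

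Ratios of 2 genes within a library do not depend on the factor by which a library is scaled, and 6 were computed. The heavy to light chain ratio of ferritin, *Fth1*/*Ftl1*, was 4.57, 4.70 and 2.80 in the wild type libraries and 3.70 and 4.28 in the knockout libraries. Replicate 3 had the lowest ratio, and the knockout libraries lay inside the wild type range. *Mt1*/*Mt2* was 1.00, 1.05 and 1.11 in the wild type libraries and 0.786 and 1.01 in the knockout libraries. The metallothioneins were thus at nearly equal FPKM in 4 libraries, with *Mt2* above *Mt1* in replicate 4.

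The ratio of receptor to store, *Tfrc*/*Fth1*, sets the gene with hairpin matches behind its coding sequence over a gene with 1 match before it. It was 0.00582, 0.00230 and 0.00225 in the wild type libraries and 0.00793 and 0.00651 in the knockout libraries. Both knockout libraries were above the 3 wild type libraries, with replicate 1 next to them and replicates 2 and 3 far below. The difference was 1.21 on the log2 scale (exact permutation p = 0.2, two-sided, the smallest possible, and 0.6 after Benjamini-Hochberg adjustment over the 6 ratios). Leaving out any 1 library gave 0.97 to 1.66. Each of these differences still included replicate 2 or 3, and the difference without both was not computed for this ratio. The proliferation genes given above were also higher in the knockout libraries, 7 of 10 without overlap, and their part in this ratio was not tested. *Trf*/*Tfrc*, ligand over receptor, was 193, 333 and 927 in the wild type libraries and 127 and 166 in the knockout libraries. The knockout libraries were the lowest, with a difference of -1.43 (exact permutation p = 0.2, adjusted 0.6), and -0.80 without replicate 3. These ratios share *Tfrc* and are not separate evidence.

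*Slc30a2*/*Slc30a4*, the ratio of the zinc transporters, was 0.177, 0.270 and 0.0602 in the wild type libraries and 0.104 and 0.195 in the knockout libraries, with exact permutation p = 1.0. *Cp*/*Slc40a1*, ferroxidase over exporter, was 136, 122 and 346 in the wild type libraries and 144 and 360 in the knockout libraries, with exact permutation p = 0.4 (0.6 adjusted). Both overlapped between the labels, and in both replicate 3 was far from replicates 1 and 2 of the same label.

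**Figure D4:**
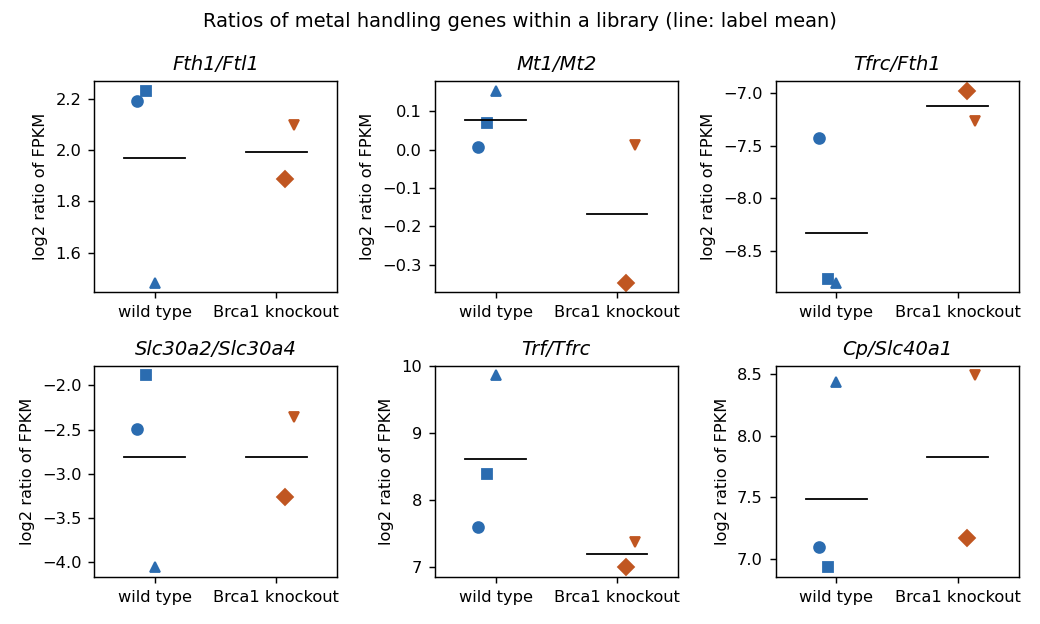
Log2 ratio of FPKM for 6 pairs of genes in each library by label, with a circle, square and triangle for replicates 1, 2 and 3, a diamond and inverted triangle for replicates 4 and 5, and a line at each label's mean. *Tfrc*/*Fth1* is higher and *Trf*/*Tfrc* lower in both knockout libraries than in the 3 wild type libraries, and the other 4 ratios overlap.

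The other genes of the same pathways were taken from 7 lists of metal handling genes, with 86 genes in the table and 67 above the filter, without the 10 described so far. None passed the adjusted test by limma, and 5 (7.46%) passed at an unadjusted p of 0.05, against 3.24% of all genes. These were *Tmprss6*, *Ltf* and *Slc30a1* with *Cox17* (difference -0.63, SE 0.20), a copper chaperone of the respiratory chain, and *Epas1* (0.71, SE 0.26), an oxygen-regulated factor, both named after their values were seen. Both knockout libraries were above all wild type libraries for 6 genes (8.96%) and below for 9 (13.4%), against 17.5% and 5.77% of all genes. These shares of all genes, 17.5% higher and 5.77% lower, are also the background for the counts of each list below. The lists are short and were not tested as sets, so those counts are not a result about any list. The median difference of the 67 was -0.0085 against 0.11 over all genes, and 31 (46.3%) were lowest in replicate 3.

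In the list of iron uptake and movement (16 genes tested, 1 higher and 3 lower without overlap, median difference 0.01), *Lcn2*, which binds iron-laden siderophores, had the highest mean level, 2502 FPKM. It was at 1749, 2158 and 5026 FPKM in the wild type libraries and at 2157 and 1422 FPKM in the knockout libraries. *Ltf*, lactoferrin, the iron-binding protein of milk and of neutrophil granules, was at 64.0, 203 and 825 FPKM in the wild type libraries and at 21.2 and 44.7 FPKM in the knockout libraries. Both peaked in replicate 3, as *Trf* and *Cp* did, and of the pair only *Ltf* was separated between the labels. Its difference of -2.80 (log2, SE 1.07) had an unadjusted p of 0.0446 and an adjusted p of 0.924 by limma, and was -1.85 without replicate 3. The mature luminal markers, 6 of 9, were lower in the knockout libraries as well, and their part in *Ltf* was not tested. *Slc11a2*, which moves ferrous iron out of endosomes, ran from 10.3 FPKM in replicate 3 to 25.7 FPKM in replicate 2, and *Steap4*, a metalloreductase, from 8.80 to 20.4 FPKM. *Slc39a14*, a transporter of zinc and iron, was at 138 to 239 FPKM, whereas its relative *Slc39a8* did not pass 0.944 FPKM.

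In the list of iron storage, release and export (11 tested, 2 higher and 1 lower without overlap, median -0.02), *Pcbp1*, an iron chaperone of ferritin, had the highest mean, 203 FPKM. *Ncoa4*, the receptor that takes ferritin to the lysosome, was nearly level at 15.0 to 16.7 FPKM, while both chains of its cargo varied as given above. The ferroxidase *Heph* was at 1.86 to 4.62 FPKM. Its relative *Hephl1* was at 0.353 FPKM in replicate 3 and at 6.36 to 13 FPKM in the others, which is the reverse of *Cp*, and had the largest difference of this list, 1.23 (log2, SE 0.87, adjusted p = 0.924 by limma). Without replicate 3 it was 0.39, and that of *Hmox1*, -1.34, was then larger. Of the 11 genes, 5 were lowest in replicate 3, against 51.9% of all genes tested.

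In the list of iron regulation (10 tested, 2 higher and 2 lower without overlap, median -0.08), *Tmprss6*, a membrane protease that restrains hepcidin signalling in liver, was at 8.32, 6.39 and 15.1 FPKM in the wild type libraries and at 1.29 and 1.94 FPKM in the knockout libraries. Every wild type library was more than 3 times as high as either knockout library. The difference of -2.0 (log2, SE 0.38) had an unadjusted p of 0.00257, the lowest of the 67 genes, and an adjusted p of 0.924 by limma, and lay between -2.24 and -1.68 when any 1 library was left out. The part of the mature luminal markers, which moved the same way, in *Tmprss6* was not tested. The genes of the iron regulatory proteins themselves were both lowest in replicate 3, as *Tfrc* and 51.9% of all genes tested were. *Aco1* was at 24.8, 30.3 and 11.3 FPKM in the wild type libraries and at 27.0 and 36.8 FPKM in the knockout libraries (difference 0.60, SE 0.44, and 0.20 without replicate 3). *Ireb2* was at 11.6, 13.7 and 8.11 FPKM in the wild type libraries and at 14.4 and 14.0 FPKM in the knockout libraries (difference 0.35, SE 0.25, and 0.16 without replicate 3). *Hif1a*, the oxygen-regulated factor, had the highest mean of the list, 28.9 FPKM.

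Among the zinc exporters (5 tested, 1 higher and 1 lower without overlap, median -0.03), *Slc30a5* had the highest mean, 14.2 FPKM, below that of *Slc30a4* and above that of *Slc30a2*. *Slc30a1*, the exporter of the cell membrane and a target of MTF1 like the metallothioneins, was at 10.9, 7.58 and 5.70 FPKM in the wild type libraries and at 14.0 and 13.2 FPKM in the knockout libraries. Unlike *Mt1* and *Mt2* it was separated between the labels (difference 0.73, SE 0.28, unadjusted p = 0.0452, adjusted p = 0.924 by limma). Of all genes, 17.5% were higher without overlap. *Slc30a1* was lowest in replicate 3, and without that library its difference was 0.53. *Mtf1* itself was at 2.67, 2.89 and 3.61 FPKM in the wild type libraries and at 3.44 and 3.67 FPKM in the knockout libraries, and the list of metal-responsive genes (3 tested, 1 higher and 0 lower without overlap) had a median difference of 0.17. Among the zinc importers (10 tested, 0 higher and 1 lower, median 0.02), *Slc39a4* was at 2.88 FPKM in replicate 3 and at 13.4 to 23.3 FPKM in the others, the same low library as for *Slc30a2* and *Slc30a4*. Of these 10 importers, 5 were lowest in replicate 3, against 51.9% of all genes tested.

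Among the copper genes (16 tested, 0 higher and 1 lower without overlap, median 0.04), *Sod1*, which holds both copper and zinc, had the highest mean, 253 FPKM. The copper importer *Slc31a1* was at 14.7 to 17.0 FPKM and the copper pump *Atp7a* at 2.52 to 3.63 FPKM. The related pump *Atp7b*, which delivers copper to ceruloplasmin in liver, was at 7.92, 5.07 and 1.98 FPKM in the wild type libraries and at 6.45 and 12.8 FPKM in the knockout libraries. Its lowest value was in replicate 3, where *Cp* was highest. That library held the lowest value of 10 of the 16 copper genes and of 51.9% of all genes tested.

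**Figure D5:**
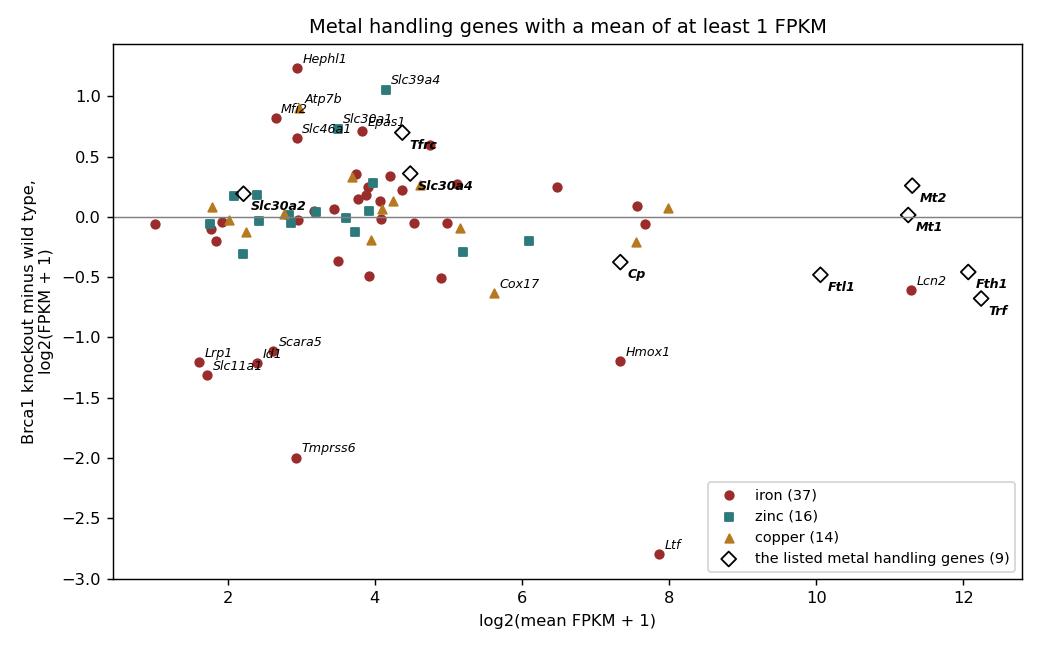
Difference between the labels (vertical axis, knockout minus wild type, log2(FPKM + 1)) against log2(mean FPKM + 1) for the 67 other metal handling genes above the filter, by metal, with the 9 tested genes of the 10 as open diamonds. *Ltf* (-2.80) and *Tmprss6* (-2.0) lie farthest below 0 and *Hephl1* (1.23) farthest above, and no gene passed the adjusted test.

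For the 6 genes that spanned at least 1 on the log2 scale, the genes with the nearest profile were found by the root mean square difference of centred log2(FPKM + 1) over the 5 libraries. Among the nearest were *Cyr61* and *Inafm2* for *Trf* (0.080 and 0.093) and *Jarid2*, *Fam213a* and *Hmgn2* for *Tfrc* (0.090, 0.098 and 0.10). For *Fth1* they were *St3gal4*, *Hddc2* and *Bloc1s6* (0.046, 0.087 and 0.094), and for *Slc30a2* they were *Gusb*, *Fam3c* and *Kirrel3* (0.114, 0.139 and 0.145). For *Cp* they were *Eppk1*, *Muc1* and *Lalba* (0.103, 0.109 and 0.115), and for *Mt2* they were *Hsf2bp*, *Ggnbp2os* and *Srxn1* (0.057, 0.090 and 0.108). The milk protein gene *Lalba* thus shared the profile of *Cp* and its high value in replicate 3, unlike the summed milk protein genes. The nearness rests on 5 points from the same libraries and is a description.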

How the data were processed

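RNA of sorted mouse mammary luminal cells was sequenced in 5 libraries, 3 labelled wild type and 2 *Brca1* knockout. The authors deposited 1 table of FPKM values, 1 column per library. The submitters' processing notes name Trimmomatic 0.35, TopHat2 2.0.13 and Cufflinks 2.2.1, and the build was mm10. The gene annotation is not given in the sources used here, nor are read totals. Cufflinks can divide reads between copies and overlapping genes, so FPKM of gene families are less certain.

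Of 24346 rows, 27 with names turned into dates were left out. No rescaling was applied before taking log2(FPKM + 1), which understates changes of low genes. The labels were compared with limma 3.58.1 (R 4.3.3, trend) on the 11481 genes averaging 1 FPKM or more, with Benjamini-Hochberg adjustment at 0.05. Ratios within a library were compared by an exact permutation test (two-sided). Depth was estimated from the smallest step of FPKM times transcript length, which rested on 17 to 28 genes a library and is approximate. Counting errors cover counting only. The limma comparison and the depth estimate were each run on simulated data, with outcomes not reported here. The values simulated for limma had the same spread in every library, so no library stood apart in them. Hairpins and promoter motifs were searched in GENCODE M21 transcripts and RefSeq promoters.

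The 10 genes, the metal and marker lists and the rules were chosen with earlier results of these data known. Named were the 10 genes, in each metal list the gene with the highest mean and the one with the largest difference, 17 further genes of the lists, the 3 nearest profiles of genes spanning at least 1, and *Brca1*. Some items under this rule are not reported here. Alternatives were the pseudocount, scaling, filter, trend, library weights and leaving out libraries.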

Additional observations from a re-analysis of the deposited data

Results flagged for a closer look

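Among 83 genes and ratios examined in the 5 libraries, 10 (12%) had 1 library whose gap to its nearest neighbour took more than 0.71 of the whole range, where chance gives about 5%. None of the 10 metal handling genes described first and none of the 6 ratios was among them. In 9 of the 10, the library was replicate 3. That library held the lowest value of 51.9% of all genes tested. The flagged share over all genes was not computed, so these counts are not a result about metal genes. The gap was 0.725 of the range for *Hephl1*, 0.738 for *Neo1*, 0.764 for *Nfs1* and 0.853 for *Scara5*. It was 0.831 for *Sco2*, 0.730 for *Slc31a1*, 0.755 for *Slc31a2*, 0.715 for *Slc39a4* and 0.743 for *Slc48a1*. The exception was *Slc39a7*, a zinc transporter of the endoplasmic reticulum, where replicate 1 stood apart (0.836).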

How the results depend on the processing

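Over all genes, 0 were called as reported. With estimated library weights it was 1, with 1 library left out 0 to 18, and without replicates 2 and 3 it was 3. None of these calls was 1 of the 10 metal handling genes, whose smallest adjusted p under any setting was 0.113 (limma). The difference of *Tfrc* was -0.13 without replicates 2 and 3. That of *Slc30a2* was -0.59 with library weights, -0.37 to 0.63 with 1 library left out and -0.042 without replicates 2 and 3. For *Cp* it was -0.81 to 0.23 with 1 left out and 0.50 without replicates 2 and 3. For *Mt1* it was -0.12 with median-of-ratios factors, -0.069 with quantile normalization, -0.067 with weights, -0.34 to 0.37 with 1 left out and -0.040 without replicates 2 and 3. For *Mt2* it was -0.27 to 0.79 with 1 left out. The differences of *Trf*, *Fth1*, *Ftl1* and *Slc30a4* kept their sign in every setting run. The mean level of *Slc40a1* was -0.31 with a pseudocount of 0.1. With 1 library left out, *Fth1*/*Ftl1* ran from -0.22 to 0.15, *Slc30a2*/*Slc30a4* from -0.62 to 0.46 and *Cp*/*Slc40a1* from -0.32 to 1.01. With median-of-ratios factors the median of the iron storage list was -0.15 and that of the metal-responsive list 0.065, which was 0.27 without replicate 3. Of the 2 genes lower without overlap, 0 remained with quantile normalization and 1 with equal summed FPKM. The 1 higher was 0 with median-of-ratios factors and 0 with quantile normalization. The cause of these changes was not tested. The scalings of the non-overlap counts, equal summed FPKM and leaving out replicates 2 and 3 together were chosen after seeing the data. Leaving out replicate 4 or 5 leaves 1 knockout library, which is then assumed to vary like the others. No paired analysis was possible because the labels share no replicate numbers. Depth limits *Slc40a1* and *Slc30a2* most.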

Other observations

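Of 10 glucocorticoid-responsive genes, 10 were tested and none passed the adjusted test by limma, with a median difference of 0.05 between the labels. Both knockout libraries were above all wild type libraries for 2 of the 10, against 17.5% of all genes, so the share was near the background. These were *Klf9*, at 48.5, 58.7 and 63.5 FPKM in the wild type and 80.8 and 83.4 FPKM in the knockout libraries, and the receptor gene *Nr3c1*, at 18.3, 18.2 and 12.5 FPKM against 21.1 and 22.1 FPKM. These 2 genes were named after their values were seen. *Klf9* was lowest in replicate 1 and highest in replicate 5, the library where *Mt1* and *Mt2* were lowest. *Fkbp5*, *Sgk1* and *Cebpd* of the same list were highest in replicate 4 and lowest in replicate 5, as *Mt1* and *Mt2* were.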
